A study of Mus musculus with 12 samples.

Results

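Wdfy1 and 7 genes around it were followed in dendritic cells with a reduced level of β2 integrin transcript. The 8 genes, of 41709 in the count tables, are Wdfy1, its relatives Wdfy2, Wdfy3 and Wdfy4, and the genes Ticam1, Ticam2, Traf3 and Tbk1 of the TRIF pathway. Wdfy1 was picked because it was lower in the integrin-deficient cells of this very dataset. Its difference between genotypes is therefore given as a description without a test. The other 7 genes were picked by family or pathway, though earlier results of these data were known at the time. They were tested, as was the response of Wdfy1 to LPS.

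The cells were bone marrow-derived dendritic cells (BMDCs), grown for 10 days with GM-CSF, isolated by their surface MHCII and sequenced as poly(A) RNA. All mice carried the CD18 gene (Itgb2, the common β2 integrin chain) with a loxP-flanked exon 3 on both alleles. The line was made from C57BL/6N embryonic stem cells. It was then crossed to B6 Albino mice, to Flp deleter mice of C57BL/6 background and to CD11c-Cre mice. CD18ΔCD11c mice (fl/fl Cre+) also carried Cre under the CD11c promoter, which is active mainly in dendritic cells, and CD18fl/fl mice (fl/fl Cre-) did not. Cells of each genotype were left untreated or received 100 ng/mL LPS for 24 h, which gave 4 groups of 3 libraries, numbered as replicates 1 to 3. The labels do not say whether replicates came from separate animals or cultures, so the p-values measure the spread between these libraries, which may be technical.

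WDFY1 is an adaptor with WD repeats and a FYVE domain, which binds the phosphoinositide PI3P of early endosomes. It is known for recruiting TRIF to the Toll-like receptors TLR3 and TLR4. TRIF (gene Ticam1) is the adaptor that TLR4, the LPS receptor, uses from endosomes, and TRAM (gene Ticam2) bridges TLR4 to TRIF. The ubiquitin ligase TRAF3 and the kinase TBK1 act downstream, where TBK1 phosphorylates the transcription factor IRF3 and thereby turns on interferon-β and other antiviral genes. WDFY2 is a smaller endosomal protein built like WDFY1, whereas WDFY3 and WDFY4 are large proteins of the BEACH family. WDFY3 is a scaffold of selective autophagy, and WDFY4 is needed for cross-presentation by type 1 conventional dendritic cells (cDC1).

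On GRCm39, Wdfy1 (ENSMUSG00000073643) lies on the minus strand at chr1:79679979-79753860, Wdfy2 on the plus strand at chr14:63075127-63198958, Wdfy3 on the minus strand at chr5:101980822-102217787 and Wdfy4 on the minus strand at chr14:32681504-32907465. Of the TRIF genes, Ticam1 occupies chr17:56576319-56583786 and Tbk1 chr10:121382360-121422692, both on the minus strand, and Traf3 occupies chr12:111132804-111233587 on the plus strand.

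Promoter sequences, here 250 bases before to 50 bases after the RefSeq start, were found for 5 of the 8 genes, namely Wdfy2, Wdfy4, Ticam1, Traf3 and Tbk1. Those of the 3 TRIF pathway genes whose level after LPS is described below and of Wdfy4, which went the other way, are shown 5′ to 3′ on the strand of the gene, at chr17:56583718-56584017, chr12:111132554-111132853, chr10:121422650-121422949 and chr14:32906974-32907273 of GRCm39. Capitals mark motif matches.
Ticam1: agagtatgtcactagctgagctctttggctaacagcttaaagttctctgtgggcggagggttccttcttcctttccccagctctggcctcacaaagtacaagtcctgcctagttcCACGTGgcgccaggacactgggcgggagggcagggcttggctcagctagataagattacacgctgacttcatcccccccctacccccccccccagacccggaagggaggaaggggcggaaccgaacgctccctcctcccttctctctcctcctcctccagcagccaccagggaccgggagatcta
Traf3: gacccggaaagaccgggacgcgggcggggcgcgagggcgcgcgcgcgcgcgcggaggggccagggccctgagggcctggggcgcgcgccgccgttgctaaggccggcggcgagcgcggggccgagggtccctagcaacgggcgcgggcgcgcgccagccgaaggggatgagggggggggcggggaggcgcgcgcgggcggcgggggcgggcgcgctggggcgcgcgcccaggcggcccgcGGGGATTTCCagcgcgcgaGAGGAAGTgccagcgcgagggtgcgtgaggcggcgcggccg
Tbk1: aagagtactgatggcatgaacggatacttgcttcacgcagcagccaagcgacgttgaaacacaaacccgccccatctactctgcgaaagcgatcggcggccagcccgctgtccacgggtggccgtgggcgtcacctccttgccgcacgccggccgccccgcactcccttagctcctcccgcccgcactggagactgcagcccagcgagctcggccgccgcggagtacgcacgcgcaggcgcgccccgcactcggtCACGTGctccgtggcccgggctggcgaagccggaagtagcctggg
Wdfy4: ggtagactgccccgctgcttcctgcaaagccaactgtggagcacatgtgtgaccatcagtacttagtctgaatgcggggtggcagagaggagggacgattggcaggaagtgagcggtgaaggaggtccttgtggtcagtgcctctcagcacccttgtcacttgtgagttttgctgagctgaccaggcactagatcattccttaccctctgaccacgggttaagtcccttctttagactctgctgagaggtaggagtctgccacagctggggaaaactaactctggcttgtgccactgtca
Both strands were searched for the E-box CACGTG, the PU.1 motif GAGGAAGT, the ISRE core and the NF-κB motif, which did not overlap each other in these windows. CACGTG was found in Ticam1, starting 135 bases before the start, and in Tbk1, and GAGGAAGT and the NF-κB match GGGGATTTCC were found in Traf3, the latter starting 10 bases before the start. The promoters of Wdfy4 and Wdfy2 held none of the 4 motifs. Of 32851 mouse promoters of the same length, 7.15% held the E-box, 3.2% the PU.1 motif, 3.44% the ISRE core and 8.46% the NF-κB motif. These matches are letters only and do not show that a factor binds there. GC content was 84.0% for Traf3, 69.0% for Tbk1, 60.0% for Ticam1 and 54.3% for Wdfy4.

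The 12 libraries held 29689149 to 34037178 reads assigned to genes, with 1.91 to 4.54% of them in introns. Levels are given as CPM (read counts scaled to a common library total), adjusted over all 12 libraries, and 3 reads corresponded to 0.0752 to 0.135 CPM. Itgb2, the targeted gene, had a mean of 394 ± 23.0 CPM in untreated CD18fl/fl BMDCs and 158 ± 34.8 CPM in untreated CD18ΔCD11c BMDCs (SD, n = 3 each), and 202 ± 56.3 and 108 ± 15.6 CPM after LPS. The groups did not overlap in either state, and the difference was -1.26 without LPS (edgeR adjusted p = 0.0887, with the replicate number as a block 0.00392) and -0.93 with LPS (adjusted p = 0.428, with block 0.0201). All 10 listed dendritic cell markers were above the level of 3 reads in every library, and their summed level was 13323 to 34071 CPM. Most of this sum came from the MHCII genes H2-Aa and H2-Ab1 and from Cd74. Since the cells were isolated by MHCII, the sum is no measure of dendritic cell identity. Replicate 3 stood apart. Itgax (CD11c) was at 284 to 680 CPM in its 4 libraries and at 30.8 to 210.03 CPM in the others. Other listed dendritic cell markers went the other way. Flt3 was at 0.227 to 2.25 CPM in replicate 3 and at 9.22 to 35.5 CPM in the others. Dpp4, Ccr7, H2-Aa and H2-Ab1 were also lowest in replicate 3 of each group, while Zbtb46, Cd74, Ciita and Cd86 had no such order throughout. Irf8, a transcription factor of cDC1, was at 131 to 709 CPM in replicate 3 against 922 to 4862 CPM. Of the other 5 cDC1 markers, Batf3 was also lowest in replicate 3 of each group, while Xcr1, Clec9a, Cadm1 and Itgae were at 9.74 CPM or less in all libraries and were not lowest in replicate 3 throughout (Clec9a 2.86 and 2.33 CPM in its CD18ΔCD11c libraries). The 9 macrophage markers summed to 2010 to 2280 CPM in untreated and 1168 to 1379 CPM in LPS-treated CD18fl/fl BMDCs, and to 1839 to 2433 and 554 to 942 CPM in CD18ΔCD11c BMDCs. Their sum was thus lower with LPS in both genotypes and, with LPS, lower in CD18ΔCD11c BMDCs, without overlap. Single markers did not all follow the sum. Adgre1 was at 408 to 491 CPM without and 554 to 641 CPM with LPS in CD18fl/fl BMDCs. Mean Mertk with LPS was 40.4 CPM in CD18ΔCD11c and 28.2 CPM in CD18fl/fl BMDCs, a difference that came from replicate 3. The part of these markers in the differences below was not tested. The summed neutrophil markers ranged from 8.90 to 14.4 CPM in replicate 3 and reached 1320 CPM in untreated CD18fl/fl replicate 1. Reads of the Y-linked gene Ddx3y were present in 10 libraries at 34.5 to 80.3 CPM and were 0 in both CD18ΔCD11c libraries of replicate 3, so within that replicate the genotype went together with the absence of Y-linked reads. Selected results of the members are therefore also given for replicates 1 and 2 alone. In these bulk libraries, fewer cells of a type and less RNA per cell cannot be told apart.

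Wdfy1 was about 5 times lower in untreated CD18ΔCD11c BMDCs than in untreated CD18fl/fl BMDCs. Its level was 38.8, 19.1 and 24.7 CPM in untreated CD18fl/fl replicates 1, 2 and 3, and 4.66, 4.47 and 5.64 CPM in the untreated CD18ΔCD11c replicates. After LPS it was 66.1, 34.7 and 23.2 CPM in CD18fl/fl BMDCs and 8.02, 6.56 and 4.47 CPM in CD18ΔCD11c BMDCs. The lowest CD18fl/fl library thus lay above the highest CD18ΔCD11c library in both states. The low level rested on 131 to 198 reads per CD18ΔCD11c library, against 763 to 2059 per CD18fl/fl library, so that Wdfy1 was reduced but detected in every library. The fitted difference was -2.43 on the log2 scale (SE 0.32, 5.38-fold lower) without LPS and -2.73 (SE 0.45, 6.63-fold lower) with LPS. The values are the ones Wdfy1 was chosen by, or were measured beside them, and carry no test.

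The size of the difference varied among the same-numbered libraries. The log2 ratio of CD18ΔCD11c to CD18fl/fl was -3.06, -2.10 and -2.13 for replicates 1, 2 and 3 without LPS, and -3.04, -2.40 and -2.38 with LPS. Replicate 1 gave the largest difference in both states, and its CD18fl/fl libraries had the highest Wdfy1 levels, while the CD18ΔCD11c libraries stayed close together. From replicates 1 and 2 alone the difference was -2.60 and -2.82, without and with LPS. In all 3 replicates with the replicate number as a block it was -2.37 and -2.64, and with the block and a correction for exon length it was -2.13 and -2.44. The SD of Wdfy1 was greater in CD18fl/fl BMDCs (27.5 ± 10.1 CPM untreated, 41.3 ± 22.2 CPM with LPS) than in CD18ΔCD11c BMDCs (4.92 ± 0.627 and 6.35 ± 1.79 CPM; SD, n = 3).

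**Figure D1:**
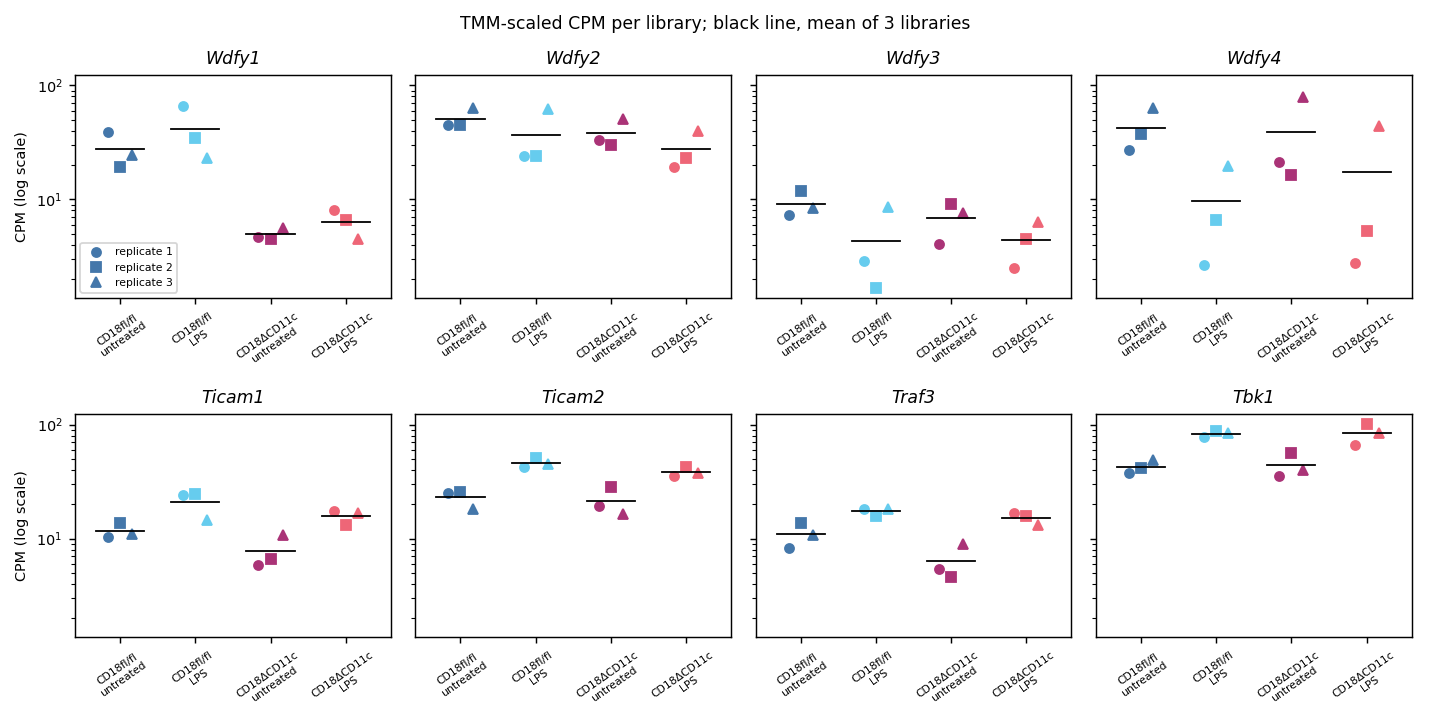
Level of the 8 genes in each of the 12 libraries, in CPM on a log axis, with 1 panel per gene; points are libraries, with a symbol for each replicate, and the black line is the mean of 3 libraries. The CD18ΔCD11c libraries sit at 4.47 to 8.02 CPM for Wdfy1, below all CD18fl/fl libraries (19.1 to 66.1 CPM), while the genotypes overlap for the other genes except Ticam2 after LPS.

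Wdfy1 did not pass the test for a response to LPS in either genotype. In CD18fl/fl BMDCs it was higher after LPS in replicates 1 and 2 (log2 ratio 0.77 and 0.86) and about equal in replicate 3 (-0.09). In CD18ΔCD11c BMDCs the ratios were 0.78, 0.55 and -0.34, so replicates 1 and 2 again went up and replicate 3 did not. The fitted change was 0.59 (SE 0.45, adjusted p = 0.454) in CD18fl/fl and 0.31 (SE 0.36, adjusted p = 0.682) in CD18ΔCD11c BMDCs, by edgeR's quasi-likelihood test with Benjamini-Hochberg adjustment. With the replicate number as a block the adjusted p was 0.221 and 0.608. The difference between the LPS responses of both genotypes was -0.22 (SE 0.56, adjusted p = 1).

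Reads of Wdfy1 that crossed an exon-exon junction gave a further view of its transcript. In CD18fl/fl BMDCs they made up 54.0, 52.7 and 49.1% of Wdfy1 reads without LPS and 68.3, 72.6 and 60.9% with LPS, so the groups did not overlap. In CD18ΔCD11c BMDCs the share was 60.3, 40.3 and 63.6% without LPS and 57.6, 47.3 and 60.9% with LPS, and the groups overlapped. Of 7785 genes with enough junction reads, 8.23% had non-overlapping junction shares with LPS in CD18fl/fl BMDCs and 10.4% in CD18ΔCD11c BMDCs. Wdfy1 was the only one of the 6 measurable members to do so in CD18fl/fl BMDCs, and Wdfy2 was the only one in CD18ΔCD11c BMDCs. Wdfy1 reads within introns numbered 0 to 44 per library. Without LPS they made up 0, 3.41 and 3.36% of Wdfy1 reads in CD18fl/fl and 6.87, 10.4 and 13.8% in CD18ΔCD11c BMDCs. With LPS the shares were 0.243, 1.18 and 4.82% against 9.09, 1.37 and 7.97%. These shares rest on few reads and were not tested.

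The first exon of Wdfy1 overlaps Mrpl44, a gene for a mitochondrial ribosomal protein on the opposite strand, by 126 bases (chr1:79753735-79753860). The library kit does not mark strand, so reads from these bases cannot be assigned to one of both genes. Mrpl44 was 26.4, 23.0 and 25.4 CPM in untreated CD18fl/fl and 31.9, 34.1 and 28.8 CPM in untreated CD18ΔCD11c BMDCs. After LPS it was 45.2, 40.2 and 22.03 CPM against 55.5, 52.8 and 26.4 CPM. Its genotype difference of 0.40 without LPS (edgeR adjusted p = 0.326, with block 0.106) and 0.30 with LPS (adjusted p = 0.849) did not pass the test. With the block and the exon length correction it was -0.02 and 0.03.

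To see whether the difference at Wdfy1 extended along the chromosome, the 5 nearest tested genes on each side were examined. With the replicate block, 2 of these 10 genes passed the test between genotypes without LPS. Ap1s3, a subunit of the AP-1 clathrin adaptor that starts 30290 bases away, was 11.02, 5.52 and 10.6 CPM in CD18fl/fl and 21.2, 13.9 and 21.0 CPM in CD18ΔCD11c BMDCs. It was higher in all 3 CD18ΔCD11c libraries (1.14, SE 0.18, edgeR adjusted p = 0.00724 with block, 0.19 without). Cul3, which encodes a scaffold of ubiquitin ligases, was lower (-0.48, adjusted p = 0.0429 with block and 0.241 without), and its adjusted p was 0.216 with the block and the exon length correction. Over all tested genes, 20.2% passed with the block and 0.0% without it in this comparison. With LPS, Rhbdd1, a rhomboid protease gene, was the only neighbour called (-0.96, adjusted p = 0.0349 with block, 0.473 without and 0.0606 with the block and length correction), against 10.1% of all genes with the block and 0.0% without. Among neighbours that were not called, the fitted values with the block reached -1.49 (SE 0.83) for Epha4 with LPS and -1.07 (SE 0.80) for Utp14b without LPS, both with wide errors.

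**Figure D2:**
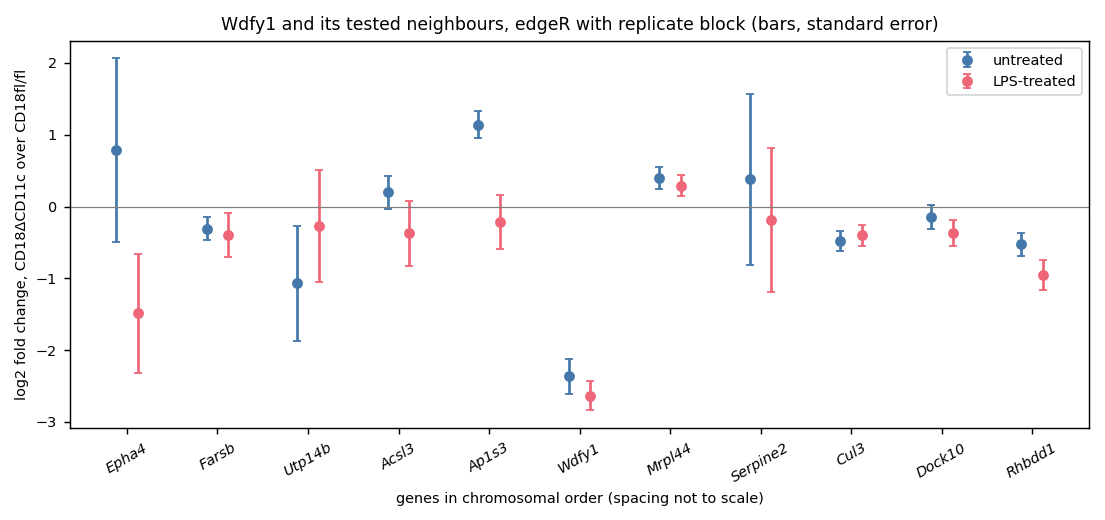
Genotype difference (log2 of CD18ΔCD11c over CD18fl/fl, fit with the replicate block) of Wdfy1 and the 5 tested genes on each side, in chromosomal order, without and with LPS; bars are the standard error. Wdfy1 lies at -2.37 and -2.64, and the neighbours lie between Epha4 at -1.49 with LPS and Ap1s3 at 1.14 without LPS.

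The neighbours also differed in their response to LPS. Ap1s3 fell by 1.46 on the log2 scale in CD18fl/fl BMDCs, a change that passed only with the block (-1.45, adjusted p = 0.0283; without block 0.102), and it fell by 2.73 in CD18ΔCD11c BMDCs (adjusted p = 0.0211 without block). The difference between the genotypes' responses was -1.23 (SE 0.54, adjusted p = 1). Farsb, a subunit of phenylalanyl-tRNA synthetase, and Acsl3, which activates long-chain fatty acids, were also lower with LPS in both genotypes with the block (-1.60 and -1.66 for Farsb, -1.54 and -2.11 for Acsl3) and did not pass without it. With the length correction added, Acsl3 no longer passed in CD18fl/fl BMDCs (edgeR adjusted p = 0.0594).

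Per length of transcript (RPKM, the CPM divided by the summed exon length in kilobases), Tbk1 was the most abundant of the 8 genes in all 4 groups and Wdfy3 the least. In untreated CD18fl/fl BMDCs the mean order was Tbk1 (14.0 RPKM), Wdfy2 (7.69), Ticam2 (5.48), Wdfy1 (4.97), Wdfy4 (4.02), Ticam1 (3.92), Traf3 (1.503) and Wdfy3 (0.614). The libraries of Ticam2 and Wdfy1, of Wdfy1 and Wdfy4 and of Wdfy4 and Ticam1 overlapped, so these neighbours in the order did not differ beyond their spread. In untreated CD18ΔCD11c BMDCs Wdfy1 stood between Ticam1 and Traf3 at 0.890 RPKM, and its libraries overlapped those of Traf3 (0.871). After LPS, Wdfy1 was at 7.47 RPKM in CD18fl/fl BMDCs, overlapping Ticam2 (11.001) and Ticam1 (7.05). In CD18ΔCD11c BMDCs it was at 1.15 RPKM, above Wdfy3 alone, and overlapped Wdfy4 (1.64). Wdfy4 moved from 4.02 to 0.911 RPKM with LPS in CD18fl/fl BMDCs, where it overlapped Wdfy3 (0.292).

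The other 7 genes were next compared between genotypes. All of them passed the filter on low counts. Without LPS, none of the 7 passed the test, with or without the block, and none had non-overlapping groups, against 24.8% of all genes tested. Ticam1 was 10.3, 13.8 and 11.1 CPM in CD18fl/fl and 5.91, 6.67 and 10.8 CPM in CD18ΔCD11c BMDCs (-0.53, SE 0.31, adjusted p = 0.425). Traf3 was 8.32, 13.7 and 10.7 CPM against 5.45, 4.602 and 8.93 CPM (-0.73, SE 0.35, adjusted p = 0.34). For both genes, replicates 1 and 2 of CD18ΔCD11c were lower than all CD18fl/fl libraries and replicate 3 was not. In replicates 1 and 2 alone the difference was -0.88 for Ticam1 (SE 0.29, edgeR adjusted p = 0.0878) and -1.08 for Traf3 (SE 0.34, adjusted p = 0.0821). None of the 7 genes passed in that fit. With all replicates, the unadjusted p was under 0.05 for 2 of the 7 genes with the block and for 0 without it. The call depended on the scaling of the libraries. With plain library totals in place of TMM, the median of all genes was at -0.46 with the block, and 4 of the 7 genes were called lower, namely Traf3 (-1.14), Ticam1 (-0.96), Wdfy3 (-0.79) and Wdfy2 (-0.78). In that fit 4583 of 12876 genes were called, 3882 of them lower.

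Ticam2 and Tbk1 had values close together in both genotypes. Without LPS Ticam2 was 25.4, 25.7 and 18.0 CPM in CD18fl/fl and 19.3, 28.5 and 16.6 CPM in CD18ΔCD11c BMDCs (-0.05, SE 0.29). Tbk1 was 37.3, 41.3 and 48.5 CPM against 35.6, 56.9 and 40.05 CPM (0.12, SE 0.24). Between 74.8 and 79.1% of Ticam2 reads per library were uniquely placed. The gene (chr18:46690358-46707600, minus strand) overlaps Tmed7, whose part in this was not tested. The level of Ticam2 is therefore less certain than that of the other members, of which at least 96.4% of reads were unique.

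Among the Wdfy1 relatives, Wdfy2 was 45.0, 44.7 and 63.7 CPM in untreated CD18fl/fl and 33.1, 29.9 and 51.1 CPM in untreated CD18ΔCD11c BMDCs (-0.37, SE 0.27, adjusted p = 0.533, with block 0.0893). It was lower in CD18ΔCD11c in each of the 3 replicate numbers. Wdfy3 was 7.32, 11.7 and 8.42 CPM against 4.02, 9.14 and 7.58 CPM (-0.35, SE 0.38). Wdfy4 was 27.1, 37.3 and 62.8 CPM against 21.3, 16.5 and 78.7 CPM (-0.06, SE 0.63), and replicate 3 was the highest library in both groups. Replicate 3 also had the lowest Irf8 and the highest Itgax in each group, and the part of these differences in the Wdfy4 level was not tested.

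With LPS, again none of the 7 genes passed the test between genotypes, and Ticam2 alone had non-overlapping groups, against 17.6% of all genes tested. It was 42.6, 51.2 and 45.0 CPM in CD18fl/fl and 35.1, 42.2 and 37.4 CPM in CD18ΔCD11c BMDCs (-0.30, SE 0.21, edgeR adjusted p = 0.702, with block 0.222). Ticam1 was 24.3, 24.5 and 14.5 CPM against 17.3, 13.1 and 16.7 CPM (-0.45, SE 0.29, adjusted p = 0.676). Its difference in replicates 1 and 2 alone was -0.72 (SE 0.23, edgeR adjusted p = 0.104). Wdfy4 was 2.67, 6.55 and 19.6 CPM against 2.76, 5.25 and 44.0 CPM, and its fitted difference of 0.84 (SE 1.13) turned to -0.23 in replicates 1 and 2 alone. Wdfy2, Wdfy3, Traf3 and Tbk1 had fitted differences between -0.45 and -0.01, all with overlapping groups. With library totals and the block the median of all genes was at -0.34, and Wdfy2 (-0.62) and Ticam2 (-0.55) were called lower, among 2642 of 12441 genes called, 2052 of them lower.

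The fitted LPS response was positive for the 4 TRIF genes and negative for Wdfy2, Wdfy3 and Wdfy4 in both genotypes. In CD18fl/fl BMDCs Tbk1 was 37.3, 41.3 and 48.5 CPM without and 78.0, 88.0 and 84.5 CPM with LPS, a 1.98-fold difference (0.98, SE 0.22, edgeR adjusted p = 0.0554, with block 0.0329). Ticam2 was 25.4, 25.7 and 18.0 CPM without and 42.6, 51.2 and 45.0 CPM with LPS (1.01, SE 0.24, adjusted p = 0.0645, with block 0.0361). Ticam1 (0.85, SE 0.29) and Traf3 (0.68, SE 0.27) were also higher in every LPS library than in every untreated library, but did not pass with the block (adjusted p = 0.0831 and 0.129) or without it (0.144 and 0.186). Wdfy4 went the other way, from 27.1, 37.3 and 62.8 CPM to 2.67, 6.55 and 19.6 CPM, which is 4.37-fold lower (-2.13, SE 0.72, adjusted p = 0.139). With the block Wdfy4 fell by 2.49 (SE 0.36, adjusted p = 0.0126). In all, 5 of the 8 genes had non-overlapping groups, against 29.5% of all genes tested. With the block 3 of the 8 passed, against 12.8% of all genes (6.33% higher and 6.43% lower), and without the block none did, against 3.89%.

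Wdfy2 and Wdfy3 had lower mean levels with LPS in CD18fl/fl BMDCs and overlapping groups. Wdfy2 was 23.8, 24.2 and 62.4 CPM with LPS (-0.47, SE 0.43, edgeR adjusted p = 0.541), so replicates 1 and 2 lay well under the untreated libraries and replicate 3 did not. Wdfy3 was 2.89, 1.67 and 8.49 CPM (-1.06, SE 0.61, adjusted p = 0.333), again with replicate 3 apart. In replicates 1 and 2 alone, with 2 libraries a group, 6 of the 8 genes passed: Wdfy2 (-0.91, adjusted p = 0.000887), Wdfy3 (-2.06, 0.000843) and Wdfy4 (-2.82, 5.29e-05) fell, and Ticam1 (1.02, 0.00192), Ticam2 (0.88, 0.00152) and Tbk1 (1.08, 0.000256) rose. Leaving out CD18fl/fl LPS replicate 3 as the only library also gave 6 of the 8 genes, among 3268 genes called in that fit. In the fit of replicates 1 and 2, 6140 genes were called in all, so the count of members stands beside a high count of genes. With all 3 replicates 12744 genes were tested in this comparison, and the number tested in the smaller fits is not given.

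**Figure D3:**
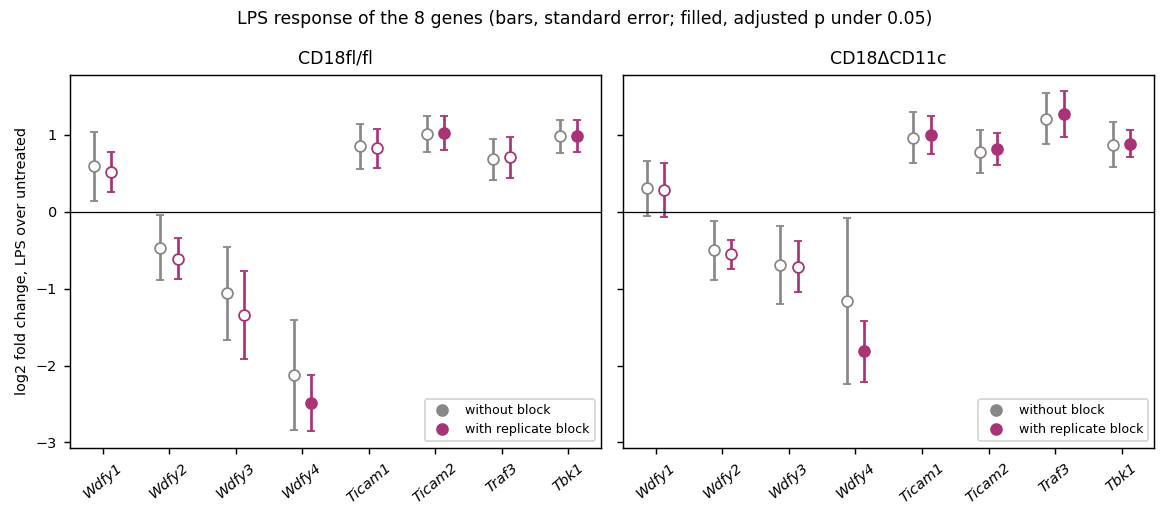
LPS response (log2 of LPS-treated over untreated) of the 8 genes in CD18fl/fl (left) and CD18ΔCD11c BMDCs (right), from the fits without (grey) and with the replicate block (purple); bars are the standard error and filled points have an adjusted p under 0.05. With the block, Ticam1, Ticam2, Traf3 and Tbk1 lie at 0.71 to 1.27, Wdfy4 at -2.49 and -1.81 and Wdfy1 at 0.52 and 0.29.

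In CD18ΔCD11c BMDCs the 4 TRIF genes also had higher levels with LPS. Tbk1 was 35.6, 56.9 and 40.05 CPM without and 65.96, 101 and 84.1 CPM with LPS, 1.83-fold higher (0.87, SE 0.29, edgeR adjusted p = 0.144, with block 0.0156). Traf3 was 5.45, 4.602 and 8.93 CPM without and 16.7, 15.9 and 13.05 CPM with LPS, 2.32-fold higher (1.21, SE 0.34, adjusted p = 0.093, with block 0.0275). Ticam1 was 5.91, 6.67 and 10.8 CPM without and 17.3, 13.1 and 16.7 CPM with LPS (0.96, SE 0.33, adjusted p = 0.153, with block 0.0344). Ticam2 was 19.3, 28.5 and 16.6 CPM without and 35.1, 42.2 and 37.4 CPM with LPS (0.78, SE 0.28, adjusted p = 0.167, with block 0.0356). These 4 genes had non-overlapping groups, which held for 28.1% of all genes tested. Wdfy4 was 21.3, 16.5 and 78.7 CPM without and 2.76, 5.25 and 44.0 CPM with LPS, so the groups overlapped through replicate 3, and it fell with the block (-1.81, SE 0.40, adjusted p = 0.0221) and did not pass without it (0.598). With the block 5 of the 8 genes passed, against 20.2% of all genes (10.2% higher and 9.93% lower), and without it none did, against 3.99%. Wdfy2 (-0.50, SE 0.38) and Wdfy3 (-0.69, SE 0.51) did not pass with or without it. Leaving out 1 library moved the Wdfy4 response without the block from -3.37 (without CD18ΔCD11c LPS replicate 3) to -0.10 (without untreated CD18ΔCD11c replicate 3). In replicates 1 and 2 alone Traf3, Ticam1 and Wdfy4 passed (1.60, 1.17 and -2.34), among 2049 genes called in that fit. With all 3 replicates 12687 genes were tested in this comparison, and the number tested in the smaller fit is not given.

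No member's LPS response was shown to differ between genotypes. The largest differences were 0.98 (SE 1.41) for Wdfy4 and 0.59 (SE 0.41) for Traf3, and the adjusted p was 1 for all 8 genes with edgeR, with or without the block. Of all genes tested, 0.0% passed this interaction in either fit, and 97 of 13752 genes had an unadjusted p under 0.05 without the block and 272 with it. The calls of Ticam1 and Traf3 with the block in CD18ΔCD11c and not in CD18fl/fl BMDCs therefore do not show a difference between genotypes. With 3 libraries a group and standard errors of this size, the interaction cannot exclude one either.

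The members were set beside 49 further genes of the TRIF pathway, from receptors to target genes. With LPS and the block, 15 of 46 tested genes rose and 2 fell in CD18fl/fl BMDCs, and 17 of 47 rose and 3 fell in CD18ΔCD11c BMDCs. These called genes are 37.0% and 42.6% of those tested, beside 12.8% and 20.2% of all genes. Without the block 8 rose and 0 fell in each genotype (17.4% and 17.0%, beside 3.89% and 3.99% of all genes). The median change of the 49 genes that were tested was 0.80 and 0.60, with a median over all genes of -0.03 and -0.01.

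Most of the genes that rose were targets of IRF3 and of interferon. With the block, 9 of 10 tested rose in CD18fl/fl and 10 of 11 in CD18ΔCD11c BMDCs, and Mx1 was the one not called in each. Rsad2, which encodes the antiviral enzyme viperin, rose by 6.40 and 6.27 on the log2 scale, and Oasl1 (6.23 and 5.83), Ifit1 (6.01 and 5.73) and Isg15 (6.00 and 5.72) had similar changes. Ifnb1, the gene for interferon-β, had 0 reads in the untreated CD18ΔCD11c libraries and a mean of 4.17 CPM with LPS, at least 42.6-fold above the mean level of 3 reads per library. It did not pass the filter on low counts in CD18fl/fl BMDCs. The median was 5.80 over the 10 target genes tested in CD18fl/fl and 5.15 over the 11 tested in CD18ΔCD11c BMDCs, where it was also 5.15 with Ifnb1 at its bound. Both medians cover different sets of genes, so they do not compare the genotypes.

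Of both IRF factors, Irf7 rose from 20.1, 14.4 and 2.97 CPM to 683, 712 and 479 CPM in CD18fl/fl and from 8.47, 8.70 and 2.98 CPM to 500, 509 and 391 CPM in CD18ΔCD11c BMDCs. The change was 5.64 and 6.07 (edgeR adjusted p = 0.0162 and 0.00916 without block), and Irf3 was not called. Among the 17 kinases, ligases and scaffolds, the same 5 genes were called with the block in both genotypes (29.4%, beside 12.8% and 20.2% of all genes), and none without it. Traf2 (1.77 and 1.37), Tank (1.06 and 1.15) and Azi2 (0.93 and 0.95) rose, and Tbkbp1 (-2.46 and -2.35) and Ripk3 (-1.88 and -1.58) fell. TANK, AZI2 and the product of Tbkbp1 are all scaffolds that bind TBK1, so the genes for TBK1's partners moved in both directions while Tbk1 itself had higher levels.

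Upstream of the members, Ly96, which encodes the TLR4 co-receptor MD-2, rose with the block in both genotypes (1.83 and 1.62), as did Cd14 in CD18ΔCD11c BMDCs (1.67). Unc93b1, which encodes the chaperone of endosomal Toll-like receptors, fell in CD18ΔCD11c BMDCs (-1.13). Tlr4 was 33.5, 29.1 and 95.5 CPM without and 11.7, 7.59 and 121 CPM with LPS in CD18fl/fl BMDCs, so replicate 3 differed from the others in level and in direction, and it was not called. In CD18ΔCD11c BMDCs it was 26.1, 27.2 and 62.5 CPM without and 17.4, 9.97 and 66.9 CPM with LPS. None of the 3 genes tested from the list of other adaptors and sorting proteins (Myd88, Tirap and Tmed7) was called in any comparison. Of the 8 inhibitors, Tnfaip3 (A20) rose with the block (1.61 and 1.83) and the other 7 were not called.

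Between genotypes, no gene of these lists passed without the block. With it, 2 of 46 were higher and 6 lower in untreated CD18ΔCD11c BMDCs, which is 17.4% against 20.2% of all genes, and 1 was higher and 2 lower of 47 with LPS, which is 6.38% against 10.1%. Tank was higher in both states. Its level was 108, 81.3 and 72.6 CPM in untreated CD18fl/fl and 203, 210.1 and 124 CPM in untreated CD18ΔCD11c BMDCs (1.07, SE 0.16, edgeR adjusted p = 0.00579 with block, 0.157 without). With LPS it was 186, 212 and 143 CPM against 392, 524 and 309 CPM (1.14, SE 0.14, adjusted p = 0.00708 with block, 0.352 without), so that the groups did not overlap in either state. Tbkbp1 (-1.10), Ripk1 (-0.73) and Ikbke (-0.67), the gene for the TBK1-related kinase IKKε, were lower without LPS with the block. With the exon length correction as well, Tank and Tbkbp1 were the kinase and scaffold genes still called. With LPS, Unc93b1 (-0.74) and Ccl5 (-0.62) were lower. Of the tested list genes 35 of 46 had a negative genotype difference without LPS and 40 of 47 with LPS, and their medians were -0.26 and -0.34 with the block, beside -0.07 and -0.09 for all genes. With the exon length correction as well, 32 of 46 and 39 of 47 were negative, and the medians were -0.18 and -0.30. The share of negative differences over all genes is not given, so these counts have no background beside them.

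**Figure D4:**
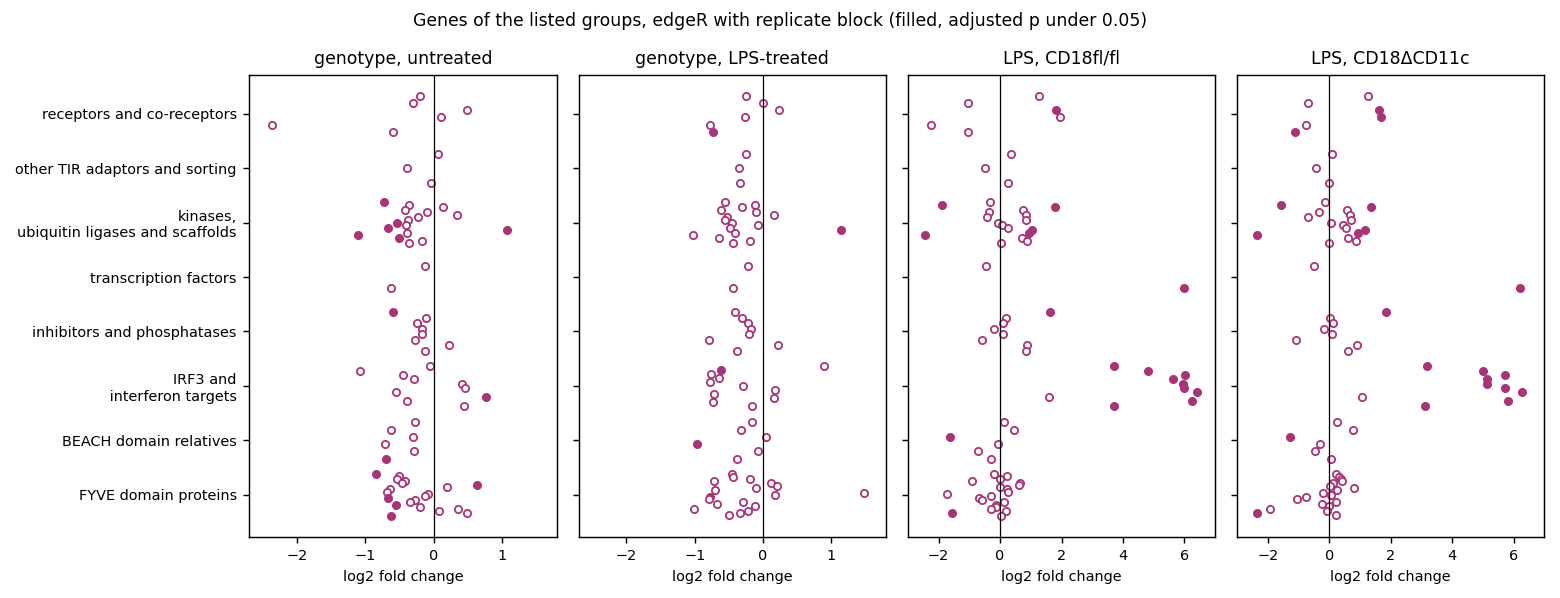
Log2 differences (fit with the replicate block) of the TRIF pathway genes by role and of genes for BEACH and FYVE proteins, in 4 panels for the genotype difference without and with LPS and the LPS response in both genotypes; each point is 1 gene, filled where the adjusted p was under 0.05. The target genes lie at up to 6.40 in the LPS panels, while in the genotype panels Tank is the filled point at 1.07 and 1.14; Ifnb1 is left out of the LPS panels because untreated CD18ΔCD11c libraries had no read of it.

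Genes sharing a domain with the members were examined in the same way. Of 6 tested genes for other BEACH proteins, Nbeal2 fell with LPS in CD18fl/fl BMDCs (-1.60, edgeR adjusted p = 0.0411 without block) and with the block in CD18ΔCD11c BMDCs (-1.26, adjusted p = 0.0279; without block 0.114). NBEAL2 is known for its part in platelet granules. Wdr81 was lower in untreated CD18ΔCD11c BMDCs (-0.71) and Lyst, the gene mutated in Chediak-Higashi syndrome, was lower after LPS (-0.97), both with the block only. Of 20 genes for FYVE proteins, 1 was higher and 4 lower in untreated CD18ΔCD11c BMDCs with the block, led by the endosomal tether gene Eea1 (-0.85), and 0 were called without it. That is 25.0% against 20.2% of all genes. Rufy1 was lower in both states (-0.67 and -0.78). With the block and the exon length correction, 0 genes of the BEACH and FYVE lists were called between genotypes in either state, so the calls of Wdr81, Lyst, Eea1 and Rufy1 were lost. With LPS, Fgd2 was the one FYVE gene called in each genotype with the block (-1.56 and -2.36). None of these relatives had, in either state, a genotype difference as large as that of Wdfy1. Since Wdfy1 was chosen for its fall, this does not set it apart from them.

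Across the 12 libraries, the levels of the members were more alike in some pairs than in others. Pearson's r on log2 CPM was 0.898 for Ticam1 with Traf3 and 0.889 for Ticam2 with Tbk1, and it was 0.871 for Wdfy2 with Wdfy4, 0.778 for Wdfy2 with Wdfy3 and 0.764 for Wdfy3 with Wdfy4. Wdfy1 was correlated weakly with its relatives (0.0994 with Wdfy2, -0.181 with Wdfy3 and -0.243 with Wdfy4) and more with Ticam1 (0.556) and Traf3 (0.485). The genes most like Wdfy1 among 13751 others were Pip4p1 (0.947), Fbh1 (0.945), Rtn3 (0.933), Tmbim6 (0.931) and Wapl (0.923), and the most opposed were the ribosomal protein genes Rpl22 (-0.950), Rps13 (-0.948) and Rps27a (-0.944). All of these values are descriptions over 4 groups that share genotype, treatment and replicate number, and the likeness includes the genotype difference by which Wdfy1 was chosen. When only the 8 libraries of replicates 1 and 2 were used, the 5 most similar genes held ranks 27, 8, 31, 47 and 78.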

How the data were processed

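Reads of 59 bases were trimmed and aligned by the authors with the CLC Genomics Workbench (v22.0, default settings) to GRCm39. The GEO notes list GRCm38, and the gene positions in the files are those of GRCm39. The authors deposited raw counts of total gene reads per gene, together with unique, exon, junction and intron reads, and an RPKM column that was not used here. No molecular identifiers were used, so the level of 3 reads covers counting error only.

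Total gene reads were tested here with the quasi-likelihood test of edgeR 4.0.16 (R 4.3.3, TMM scaling, filterByExpr with a minimum count of 10, Benjamini-Hochberg adjustment over all genes tested, threshold 0.05), with 6 libraries per comparison and 12 for the interaction. CPM and RPKM were computed from the counts with a prior count of 2 on the log2 scale only. A fit with the replicate number as a block was run as an alternative. The labels give no shared litter or day, so whether the numbers pair the samples was checked in the counts. Deviations from the group means correlated at 0.265 to 0.716 between groups for every same-numbered pair. They correlated at 0.154 to 0.334 between replicates 1 and 2 and at -0.571 to -0.321 between replicate 3 and the others. The check thus sets replicate 3 apart, but it does not show a pairing within replicates 1 and 2. Between untreated and LPS-treated CD18fl/fl BMDCs, replicate 1 with replicate 2 gave 0.278 and replicate 2 with itself 0.265. The other alternatives were DESeq2 1.42.0, which the authors used on these reads, other scalings, filters and samples, unique reads and an exon length correction. A fit of all 12 libraries with the block was added after seeing the data. The tests were tested on simulated data with 200 changed genes. The members and gene lists were chosen with earlier results of these data known. Named are all members, Itgb2, up to 4 called genes per list and comparison with the largest change plus genes close to the members' roles, the 5 tested neighbours on each side and the genes most like each member. Where 5 or fewer genes of a list were called, others were named after their values were seen. Promoters came from a RefSeq table (GRCm38.p6) and were placed by exact match on GRCm39. Some genes named by this rule are not reported here.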

Additional observations from a re-analysis of the deposited data

How the results depend on the processing

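Numbers of genes called depended strongly on the replicate block and on replicate 3, and the cause was not tested. Of the values recomputed for single members, 602 kept their direction and their side of the threshold, 58 kept their direction and passed it only under the alternative, and 52 changed sign. The genotype difference of Wdfy1 had no threshold, and was counted as kept if it stayed within the larger group SD of its log2 CPM.

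Between genotypes without LPS, 0 genes passed without the block and 2606 with the replicate block, 1501 with the block and an exon length correction, 4583 with the block and library size scaling (4 members), 509 with DESeq2, 1383 in replicates 1 and 2 only, 19 with all 12 libraries in one fit and 1115 with all 12 and the block. Between genotypes with LPS, 0 passed without the block, and the same settings gave 1262, 861, 2642 (2 members), 153, 523, 45 and 623, with 1 gene when no filter was used. For LPS in CD18fl/fl BMDCs 496 genes and 0 members passed without the block. The replicate block gave 1627 genes (3 members), the added length correction 1759 (3), the block with library size scaling 1621 (1), DESeq2 1795 (3), replicates 1 and 2 only 6140 (6), all 12 libraries 1068 (2) and all 12 with the block 3365 (3). For LPS in CD18ΔCD11c BMDCs 506 genes and 0 members passed without the block, and in the same order 2560 (5), 2550 (5), 2748 (4), 1534 (1), 2049 (3), 983 (2) and 3016 (5), with 805 when no filter was used. With library size scaling the median of all genes was -0.44, -0.37, -0.32 and -0.23 in these 4 comparisons, instead of -0.05, -0.11, -0.02 and -0.01 with TMM. With the block, this scaling turned the split of higher and lower calls from 1555 and 1051 to 701 and 3882 between genotypes without LPS, from 869 and 393 to 590 and 2052 with LPS, from 807 and 820 to 476 and 1145 for LPS in CD18fl/fl, and from 1300 and 1260 to 884 and 1864 for LPS in CD18ΔCD11c BMDCs. Without the block, the LPS calls went from 263 higher and 233 lower to 143 and 304 in CD18fl/fl and from 283 and 223 to 186 and 300 in CD18ΔCD11c BMDCs.

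Leaving out 1 library at a time gave 0 to 0 called genes between genotypes without LPS, 0 to 1 with LPS, 0 to 3268 for LPS in CD18fl/fl (0 to 6 members, both highest without CD18fl/fl LPS replicate 3) and 0 to 1033 for LPS in CD18ΔCD11c BMDCs. 

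Directions turned for some members, including the Wdfy4 genotype difference of 0.84 with LPS and its interaction of 0.98. Without LPS the genotype difference of Tbk1 was -0.28 with library size scaling and -0.30 with this and the block, and with the block and length correction Wdfy4 was at 0.0031 and Ticam2 at 0.092. With LPS, Wdfy3 was at 0.034 with DESeq2, 0.037 with RLE size factors, 0.0028 with no filter, 0.0083 with unique reads, 0.19 with the block, 0.32 with the block and length correction, 0.56 in replicates 1 and 2, 0.014 with all 12 libraries and 0.055 with all 12 and the block. Tbk1 was then at 0.012 with DESeq2, 0.017 with RLE size factors, 0.047 with the block and length correction and 0.0057 with all 12 libraries, and Wdfy4 at -0.23 in replicates 1 and 2. For the interaction, Wdfy2 was at -0.0468 with DESeq2, -0.0471 with RLE size factors, -0.0024 with unique reads and -0.10 with the block and length correction, and Tbk1 at 0.00066 with library size scaling. Leaving out 1 library gave without LPS -1.10 to 0.31 for Wdfy4, -0.32 to 0.12 for Ticam2 and -0.12 to 0.26 for Tbk1, and with LPS -0.86 to 0.16 for Wdfy2, -0.39 to 0.91 for Wdfy3, -1.32 to 1.92 for Wdfy4 and -0.18 to 0.12 for Tbk1. For the interaction it gave -0.69 to 0.19 for Wdfy1, -0.38 to 0.52 for Wdfy2, -1.15 to 2.02 for Wdfy4, -0.16 to 0.48 for Ticam1, -0.36 to 0.086 for Ticam2 and -0.25 to 0.17 for Tbk1.

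Of the 5 genes most like Wdfy1, 0 were among the first 5 in replicates 1 and 2. Wdfy1 was 131 to 198 reads deep in CD18ΔCD11c BMDCs, which limits the precision of its junction share there.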

Other observations

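The 7 other members each had genes of similar pattern over the 12 libraries, given here as Pearson's r on log2 CPM and with no test, since all values share the 4 groups and 3 replicate numbers. For Ticam2 the 3 most similar genes included the interferon-induced genes Ifit2 (0.963) and Oasl1 (0.959), beside Gm5431 (0.958). Tbk1 was closest to Ceacam18 (0.967) and to the Notch ligand gene Dll4 (0.953), both near 0 CPM without LPS, and to Wdr33 (0.949). Ticam1 was closest to Sec24d (0.947), Kif3c (0.945) and Zkscan5 (0.937), and Traf3 to Whamm (0.936), Lrp8 (0.932) and Pacs2 (0.932). Among the Wdfy1 relatives, Wdfy4 had high values with Rasgrp4 (0.970) and Vars (0.967). Wdfy2 was closest to Rabl6 (0.984), Ewsr1 (0.973) and Upf3b (0.972), and Wdfy3 to B3gnt3 (0.968) and Minpp1 (0.961).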
